A study of Mus musculus with 11 samples.

Results

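The regions described are low peaks longer than 48 bp in a list deposited with a study of the zinc finger protein ST18, a member of the MYT1 family of transcription factors, in the developing mouse cortex. They are the peaks on chromosomes 1 to 19 that were longer than 48 bp and had a pileup below 20 tags, where the pileup is the number of overlapping tags at the highest point of a peak. By this rule 1550 regions were chosen by their measured length and pileup from the 9381 peaks of the list. Lengths, pileups and the values tied to them are therefore given as descriptions, and nothing is tested with them. The list was made from 1 alignment without a control library, so no value has a replicate and no p-value of a difference is given.

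The study's 11 samples were 4 RNA libraries from ST18 knockdown cells, 4 from control cells, 2 ChIP libraries labelled HA ChIP and 1 library of input DNA. The ChIP and input samples carry the cell label TN and the sample type in vitro, and no clone, strain, age or transgene promoter is given for them. The input sample shares the HA ChIP label. The labels name the peak list in the entry of the input sample. Its header matches no labelled sample, so whether these regions come from ChIP or from input DNA cannot be told apart here. The RNA libraries were not analysed here.

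In ChIP sequencing, DNA bound by a protein is pulled down and sequenced, and tags pile up where the protein sat. Input DNA is sequenced without pulldown, and its pileups mark regions that yield many tags by themselves, such as open chromatin or repeats with more copies in the cell than in the assembled genome. A peak caller slides along the genome, compares the local pileup with a background rate and joins neighbouring bases above the threshold into a peak whose summit is its highest base. For a sequence-specific factor, peaks with one binding site are usually narrow and have the summit near the middle.

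The 1550 regions were short. Their median length was 71 bp (interquartile range 59 to 88), 95% of them were at most 119 bp long and the longest had 579 bp. Together they covered 120066 bp, which is 0.00642% of the effective genome size that the peak caller was given. By comparison, 6999 autosomal peaks with a pileup below 20 were 48 bp long, which is the fragment length that the peak caller used, and covered 335952 bp. A further 404 autosomal peaks had a pileup of 20 or more and are called tall peaks. On chromosomes X, Y and M, 57 peaks met the limits on length and pileup and were left out by the rule.

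Lengths tailed off above the limit. The commonest was 49 bp, the shortest the rule admits, with 54 regions, against 38 of 50 bp. Lengths from 49 to 60 bp were held by 436 regions (28.1%), from 61 to 80 bp by 564 (36.4%) and from 81 to 96 bp by 297 (19.2%). Another 222 (14.3%) had 97 to 144 bp, and 31 (2.0%) were longer than 144 bp. Regions shorter than 2 fragment lengths (96 bp) thus made up most of the set, while 265 (17.1%) reached that length.

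**Figure D1:**
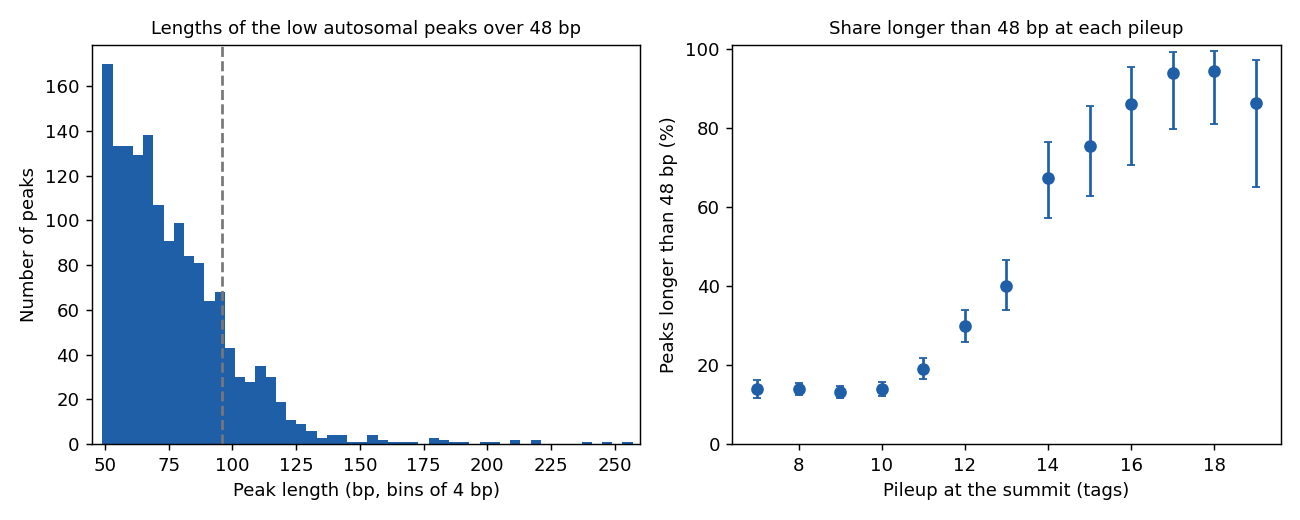
Left, number of low autosomal peaks over 48 bp by length in bins of 4 bp, with a dashed line at 96 bp; 4 peaks over 260 bp lie beyond the axis. Right, percentage of low autosomal peaks longer than 48 bp at each pileup in tags, with exact 95% binomial intervals. Lengths fall off from 49 bp, and the share stays near 14% up to a pileup of 10 before it climbs to 67.3% at 14.

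The share of low peaks longer than 48 bp was near 14% at the lowest pileups and higher above them. At a pileup of 7, the lowest in the list, 131 of the low autosomal peaks were longer than 48 bp and 809 were exactly 48 bp, so 13.9% were longer (exact 95% binomial interval 11.8 to 16.3, which covers counting error only). The share was 14.0% at 8 tags, 13.1% at 9 and 13.9% at 10. It was 18.99% at 11 tags (16.5 to 21.7), 29.8% at 12, 40.1% at 13 and 67.3% at 14 (57.1 to 76.5). From 15 to 19 tags it lay between 75.4% and 94.3%, on 22 to 61 peaks at each value. The rule used both length and pileup, so these shares describe its choice and carry no test.

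Among the regions themselves, taller did not mean longer. The median length was 79 bp at a pileup of 7, 85 bp at 8, 73 bp at 10, 63 bp at 12 and 53 bp at 17. Pearson's r between length and pileup across the 1550 regions was −0.09, given as a description because both measures come from the same tags. In the shortest class, 49 to 60 bp, the median pileup was 12 tags. It was 9 tags both for 81 to 96 bp and for 97 to 144 bp, and 14 tags in the 31 regions over 144 bp.

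The fold of a peak over its background, as deposited by the authors, had a median of 5.20 (interquartile range 4.58 to 6.11, range 3.45 to 10.18). The −log10 q had a median of 3.42 and reached 14.2. At a fold of at least 8 there were 95 of the 1550 regions (6.13%), against 5.80% of all 9381 peaks. Fold and q follow from the pileup that the rule used, so nothing is read from that count. The background implied by pileup and fold had a median of 1.004 tags (interquartile range 0.965 to 1.13). The lowest value in the list, 0.965 tags, is taken here as the genome-wide rate. Tags times fragment length over the effective genome size give a slightly lower 0.955. For 4 of the 5 length classes the share at this genome-wide rate lay between 38.3% (97 to 144 bp) and 52.5% (49 to 60 bp). It was 19.4% in the 31 regions over 144 bp, and 54.2% in the low peaks of 48 bp.

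At the upper limit of the rule, 33 regions had a pileup of 18 with a median length of 61 bp and a median fold of 9.32, and 19 had a pileup of 19 with 56 bp and 7.71. Just outside it, 23 autosomal peaks over 48 bp had a pileup of 20 (median 65 bp, fold 7.31) and 22 had a pileup of 21 (68 bp, 10.4). At the lower limit of length, the 54 regions of 49 bp had a median pileup of 14 tags (range 9 to 19), and the 6999 low peaks of 48 bp had a median of 9 (range 7 to 19).

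The named regions of highest fold were mostly short. In all, 6 regions shared the highest fold, 10.18, with a pileup of 19 over the genome-wide background and a −log10 q of 14.2; the coordinates of 5 of them follow. Positions are given in mm9, the build in the submitters' processing notes. They were chr1:8118512-8118564 (53 bp), chr4:126265696-126265746 (51 bp), chr4:146611180-146611238 (59 bp), chr11:34444819-34444881 (63 bp) and chr13:62038758-62038807 (50 bp). Their summits lay 21 to 34 bp from the start. The chromosome 13 region stood 352638 bp from the nearest other peak of the list and the chromosome 1 region 190239 bp, whereas the second chromosome 4 region had a neighbour after 5162 bp.

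Another 5 regions are named by fold. The longest of them was chr9:18096663-18096813, which spanned 151 bp with a pileup of 19 and a fold of 10.1, and had its summit 46 bp from its start. The other 4 were chr5:105351854-105351904 (51 bp, fold 9.72), chr1:87518183-87518241 (59 bp), chr4:146773027-146773099 (73 bp) and chr5:15196847-15196907 (61 bp), the last 3 at a fold of 9.67. In all, 15 regions of 49 to 96 bp shared this fold and the same −log10 q, and these 3 come first by chromosome and start. The 51-bp region lay 933 bp from a peak with a pileup of 20 or more, and the chromosome 1 region 3452 bp from one.

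The longest regions differed in how near their neighbours were. The 2 longest lay at the end of the listed part of chromosome 9, with a region of 100 bp between them. There, chr9:123832914-123833492 had 579 bp, a pileup of 18 and a fold of 8.37, and chr9:123833768-123834103 had 336 bp, a pileup of 14 and a fold of 6.61. Their nearest other peaks were 52 and 81 bp away. The next in length were chr7:7252252-7252533 (282 bp, pileup 15, fold 8.14), chr11:116625860-116626133 (274 bp, pileup 15, fold 8.14) and chr11:102465531-102465783 (253 bp, pileup 18, fold 8.90). These 3 had no other peak within 10 kb, the nearest being 21321, 10013 and 183170 bp away. Their summits lay 62, 234 and 114 bp from the start, so 2 of the 3 were strongly off-centre.

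Along the chromosomes the regions were sparse. Over the 2403 Mb between the first and the last listed peak of each autosome there were 0.645 per Mb, against 2.91 per Mb for the low peaks of 48 bp. The median chromosome held 0.596 per Mb. The highest density was 0.931 per Mb on chromosome 4 (142 regions over 153 Mb), followed by 0.859 on chromosome 11 (102 regions), 0.832 on chromosome 17 (76 regions) and 0.701 on chromosome 12 (82 regions). The lowest was 0.476 on chromosome 3 (74 regions over 156 Mb). The other 14 autosomes lay between 0.557 (chromosome 16) and 0.662 (chromosome 9). Chromosome 18 held 51 regions, or 0.584 per Mb.

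The 3 densest chromosomes differed in what the other low peaks did. Chromosome 11 also had the highest density of 48-bp peaks, 4.11 per Mb, and chromosome 3 the lowest, 2.15 per Mb, so the share of low peaks longer than 48 bp was 17.3% on chromosome 11 (102 of 590 peaks) and 18.1% on chromosome 3. Both stood near the 18.1% of all autosomes (1550 of 8549). On chromosome 4 the density of 48-bp peaks was 2.87 per Mb, near the autosomal value, and 24.5% of the low peaks were longer than 48 bp (exact 95% binomial interval 21.03 to 28.2). On chromosome 17 the share was 21.6% (17.4 to 26.3), and on the other 15 autosomes it ranged from 16.0% (chromosome 10) to 19.8% (chromosome 12). Of the 19 intervals, only that of chromosome 4 lay wholly above the autosomal share. The median length varied little, from 65 bp on chromosomes 10 and 17 to 78 bp on chromosome 9.

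**Figure D2:**
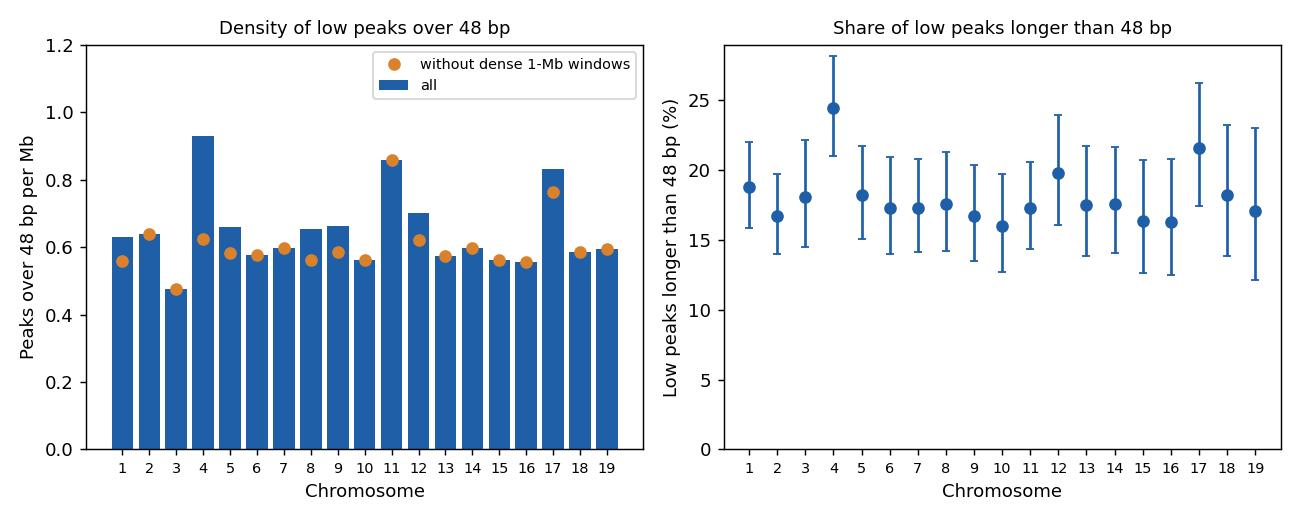
Left, low autosomal peaks over 48 bp per Mb of each chromosome (bars), and the same without 1-Mb windows that hold 7 or more of them (points). Right, percentage of low peaks on each chromosome that are longer than 48 bp, with exact 95% binomial intervals. Chromosome 4 falls from 0.931 to 0.624 per Mb without its dense windows, and chromosome 11 stays at 0.859.

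A small part of the regions was gathered in a few places. Of 2417 windows of 1 Mb between the first and last peak of each autosome, 1409 (58.3%) held none, 681 held 1, 229 held 2, 66 held 3, 24 held 4 to 6 and 8 held 7 or more. Those 8 windows held 113 regions, or 7.29% of the set, against 0.814% of the low peaks of 48 bp and 13.1% of the tall peaks (53 of 404). Of all 9381 peaks of the list, 9158 lay outside these windows. The windows were picked by their count of regions after the values were seen, so their numbers are a description only. The variance of the count per window was 2.27 times its mean, and 1.22 times its mean without the 8 windows. For the 48-bp peaks it was 1.67 times the mean, and for the tall peaks 21.7 times. The mean counts per window differed, at 0.641 for the regions, 0.597 without the 8 windows, 2.90 for the 48-bp peaks and 0.167 for the tall peaks. Such a ratio depends on the mean, and only the regions were also counted without their fullest windows. The ratios therefore do not rank the groups by unevenness.

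Chromosome 4 held the 2 fullest windows, next to each other. The window from 146 to 147 Mb held 26 regions, 11 low peaks of 48 bp and 8 peaks with a pileup of 20 or more. The window from 145 to 146 Mb held 22, 11 and 8. Together these 48 regions were a large part of the 142 on chromosome 4. Without them its density was 0.624 per Mb and its share of longer low peaks 18.4%, both within the range of the other autosomes.

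The remaining 6 windows lay on 6 chromosomes. Chromosome 1 from 85 to 86 Mb held 14 regions with a median pileup of 15 tags. Chromosome 5 from 26 to 27 Mb held 12, with 3 low peaks of 48 bp and 0 peaks at a pileup of 20 or more. Chromosome 8 from 19 to 20 Mb also held 12, with the shortest median length of the 8 windows, 53.5 bp, and 22 peaks of pileup 20 or more. Chromosomes 12 (116 to 117 Mb) and 9 (123 to 124 Mb) held 10 each, and chromosome 17 (36 to 37 Mb) held 7. In each of the 8 windows more of the low peaks were longer than 48 bp than were 48 bp, from 57.1% on chromosome 8 to 80% on chromosome 5, which the choice by number of longer peaks favours.

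**Figure D3:**
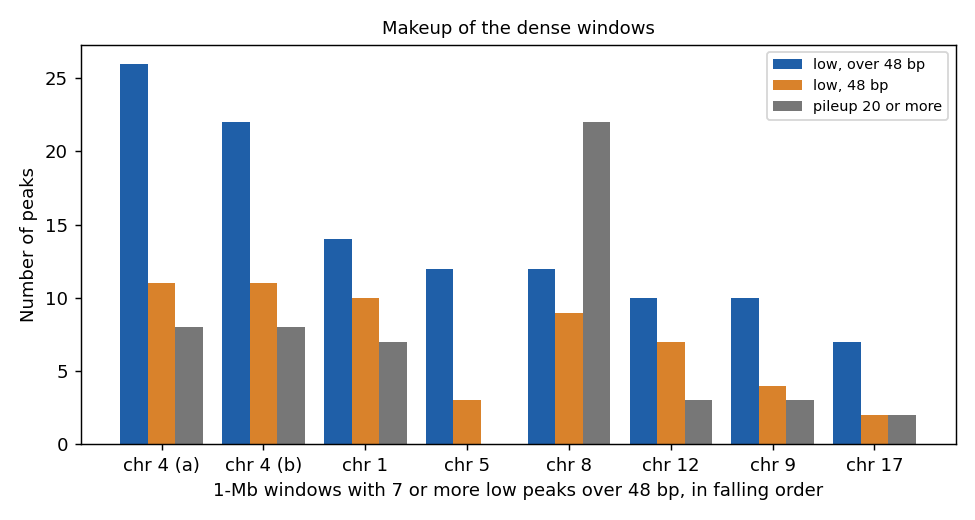
Number of peaks of 3 kinds in each 1-Mb window that holds 7 or more low peaks over 48 bp; chr 4 (a) is 146 to 147 Mb and chr 4 (b) 145 to 146 Mb. The windows hold 26 to 7 of these peaks, and only on chromosome 8 are peaks with a pileup of 20 or more the most frequent kind, at 22.

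Regions inside the 8 windows were taller than those elsewhere. Their median pileup was 14 tags against 10 for the 1437 regions outside, with a median length of 64 against 72 bp and a median fold of 6.17 against 5.09. The low peaks of 48 bp in the same windows had a median pileup of 12 tags, against 9 elsewhere. In the window on chromosome 4 from 145 to 146 Mb the implied background was 1.85 tags at the median, and from 146 to 147 Mb it was 1.32, against 1.004 over all 1550 regions. On chromosome 8 it was 0.965, the genome-wide rate. The windows therefore did not share one level of implied background. Without a control library, the local background came from the same tags over 10000 bp, including those of neighbouring peaks.

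Close neighbours were counted next, as the gap in bp between the ends of 2 peaks. The smallest gap in any group of autosomal peaks was 51 bp, 1 more than the 50-bp tag size, so nothing closer was listed as separate. From a region to any other peak of the list the median gap was 58353 bp (interquartile range 16800 to 134935). For the low peaks of 48 bp it was 79858 bp, and for autosomal peaks with a pileup of 20 or more it was 354 bp.

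Another peak of the list lay within 1 kb of 124 regions (8.0%, exact 95% binomial interval 6.70 to 9.46), against 8.40% of all 9381 peaks, 1.49% of the low 48-bp peaks (1.22 to 1.80) and 66.6% of the autosomal peaks with a pileup of 20 or more. Within 10 kb the count was 293 regions (18.9%, 17.0 to 20.9), against 17.9% of all peaks and 10% of the low 48-bp peaks (9.31 to 10.7). Both shares lay near those of the whole list, which includes the crowded tall peaks, and above those of the 48-bp peaks. Of the 124 regions with a neighbour within 1 kb, 57 lay in the 8 dense windows and 38 on chromosome 4, and 18 of the 19 autosomes held at least 1. Peaks with a pileup of 20 or more were within 10 kb of 82 regions (5.29%) and of 52 low peaks of 48 bp (0.743%). Among the tall peaks themselves, 290 of 404 (71.8%) had another tall peak that near. The share over all peaks of the list was not computed, so nothing is read from these counts.

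**Figure D4:**
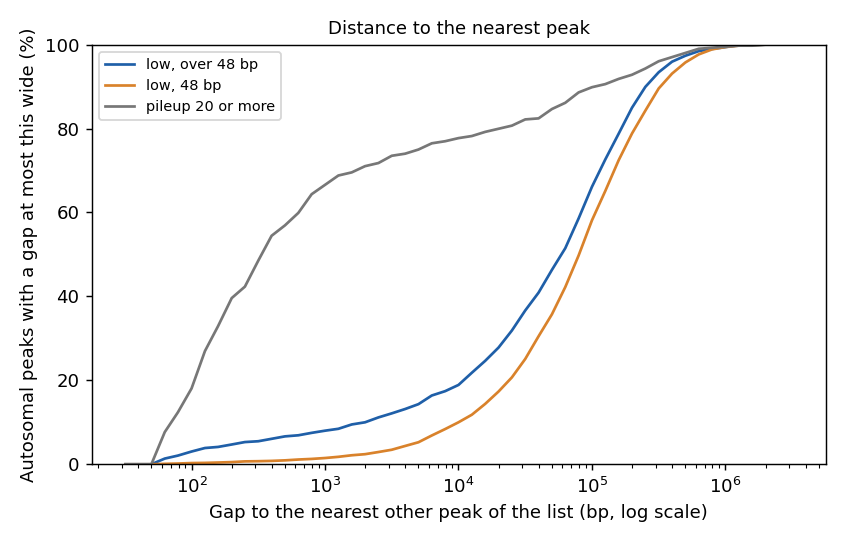
Cumulative percentage of autosomal peaks whose gap to the nearest other peak of the list is at most the distance on the log-scaled axis in bp, for 3 kinds of peak. At 1 kb the curves stand at 8.0% for low peaks over 48 bp, 1.49% for low peaks of 48 bp and 66.6% for peaks with a pileup of 20 or more.

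Pileup moved with this difference. Among low peaks with 7 to 9 tags, 10.3% of 679 regions (8.13 to 12.8) and 9.12% of 4310 peaks of 48 bp (8.28 to 10.02) had another peak within 10 kb, and the intervals overlapped. With 10 to 12 tags the shares were 17.7% of 548 (14.6 to 21.2) and 9.94% of 2485 (8.79 to 11.2), and the intervals stood apart. With 13 to 19 tags they were 39.0% of 323 (33.7 to 44.6) and 29.4% of 204 (23.3 to 36.2), and these intervals overlapped again. Within 1 kb the shares were 2.65% and 0.974% at 7 to 9 tags, 5.84% and 1.49% at 10 to 12, and 22.9% and 12.3% at 13 to 19. Peaks of either length were nearer to others where they were taller, and the part of pileup in the difference between the lengths was not tested.

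Outside the 8 windows, 197 of 1437 regions (13.7%, 11.97 to 15.6) had another peak within 10 kb, against 651 of 6942 low 48-bp peaks (9.38%, 8.70 to 10.1). Within 1 kb the counts were 67 regions (4.66%) and 82 peaks of 48 bp (1.18%). Of all 9158 peaks of the list outside the windows, 16.2% had another peak within 10 kb and 7.35% within 1 kb, both above the shares of the regions.

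Joining regions whose gap was at most 10 kb gave 57 clusters that held 156 regions (10.1%), and 1394 stood alone. The share was 5.08% without the 8 dense windows, 5.90% with a pileup below 15 and 6.40% without regions within 10 kb of a tall peak. There were 41 pairs, 5 clusters of 3 and 11 of 4 or more, and these 11 lay on 6 chromosomes and held 59 regions. With a limit of 1 kb there were 30 clusters of 72 regions, and with 100 kb there were 132 clusters of 374 regions, the largest with 22. Of the 1531 gaps from one summit to the next on the same chromosome, 1 was under 100 bp, 13 lay between 100 and 200 bp, 9 between 200 and 300 bp and 687 over 1 Mb.

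The largest cluster at 10 kb, chr4:146773027-146793837, had 8 regions in 20811 bp. Their pileups were 18, 14, 17, 12, 16, 14, 16 and 18 tags from left to right, and their folds fell between 5.32 and 9.67. A group of 7 at chr4:145740308-145743329 was packed into 3022 bp. Its regions had 15 to 19 tags, among the tallest the rule admits, and folds of 3.84 to 4.86. The implied background was 3.12 to 3.17 tags, above the genome-wide 0.965, and includes tags of the neighbouring peaks themselves. A group of 6 at chr4:146893694-146910372 had pileups from 8 to 19 and folds of 3.61 to 5.17. All 3 of these clusters had peaks with a pileup of 20 or more inside them or within 10 kb, 2, 3 and 3 in number.

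The other 2 of the 5 largest clusters were unlike each other. At chr5:26333440-26337793, 6 regions of 52 to 169 bp lay in 4354 bp, with pileups of 11, 13, 15, 18, 15 and 13 tags in order and folds of 5.62 to 8.74. It had 0 low peaks of 48 bp and 0 peaks with a pileup of 20 or more within 10 kb. At chr9:123832780-123844392, 6 regions covered 1317 bp in a span of 11613 bp. In bp this was the most of the 5 clusters, because it held the regions of 579 and 336 bp. The cluster at chr4:145740308-145743329 covered a larger part of its span, 597 of 3022 bp. Pileups in the chromosome 9 cluster ranged from 10 to 18 tags, with 3 low peaks of 48 bp and 3 peaks of pileup 20 or more beside them.

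The outermost Mb at each end of the 19 chromosomes was counted separately. Within 1 Mb of the first listed peak of a chromosome lay 23 regions (1.48%, exact 95% binomial interval 0.943 to 2.22) and 64 low 48-bp peaks (0.914%, 0.705 to 1.17), against 147 of the 404 autosomal peaks with a pileup of 20 or more (36.4%). Within 1 Mb of the last listed peak lay 31 regions (2.0%, 1.36 to 2.83), 64 low 48-bp peaks (0.914%) and 19 tall peaks (4.70%). The regions numbered 1.21 per Mb at the first Mb and 1.63 per Mb at the last, against 0.645 over the autosomes. Each of these outer Mb is measured from a listed peak, so it holds a peak of some kind by construction, which favours the higher densities. Of the 31 regions at the last Mb, 10 lay on chromosome 9, where the dense window from 123 to 124 Mb is at the end, and without that chromosome the last Mb held 1.17 per Mb.

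The position of the summit within the peak was not used by the rule. In 543 regions (35.0%, exact 95% binomial interval 32.7 to 37.5) it lay in the middle 20% of the peak, against 22.2% of the low 48-bp peaks (21.3 to 23.2) and 50.1% of the 397 autosomal peaks over 48 bp with a pileup of 20 or more (45.1 to 55.2). The outermost 10% at either side held the summit in 139 regions (8.97%), in 19.3% of the 48-bp peaks and in 2.77% of the taller long peaks. On both counts the regions stood between the other groups, and the 3 intervals did not overlap. The median distance from summit to centre was 11 bp. Lengths limit these shares, since a summit can lie farther from the centre of a longer peak.

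Centring also varied with pileup and length. The middle 20% held 27.5% of summits in regions of 7 to 9 tags, 38.5% at 10 to 12 and 44.9% at 13 to 19, against 18.5%, 27.6% and 36.3% of the low 48-bp peaks at the same pileups. The share of the regions was thus the higher one in each class of pileup, and in both groups it was higher with more tags. Within classes the regions could be taller than the 48-bp peaks. Their median pileup was 11 against 10 tags at 10 to 12, and 14 against 13 at 13 to 19. At 13 to 19 tags the shares rest on 145 of 323 regions and 74 of 204 peaks of 48 bp. The part of pileup in the difference was not tested. A summit before the centre was found in 809 regions (52.2%, 49.7 to 54.7) and after it in 713, with 28 at the centre. In the 48-bp peaks 56.9% lay before it (55.7 to 58.0).

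By length, the middle 20% held 33.9% of the summits at 49 to 60 bp, 42.9% at 61 to 80 bp and 43.8% at 81 to 96 bp, but 5.0% at 97 to 144 bp (11 of 222, 2.50 to 8.69). Of the 222 regions of 97 to 144 bp, 124 had the summit within 47 bp of the start and 96 within 47 bp of the end, which leaves 2. The same class of taller peaks had its summit in the middle 20% in 18 of 54 cases (33.3%, 21.1 to 47.5). In 49 of those 54 (90.7%) the summit lay within 47 bp of 1 end. Over 144 bp, 16 of the 31 regions had the summit more than 47 bp from both ends. In this class the middle 20% held the summit in 12 of the 31 regions (38.7%, 21.85 to 57.8). For the taller peaks over 144 bp it did so in 16 of 89 cases (17.98%, 10.6 to 27.5). Here the regions had the higher share, but the intervals overlapped. At 97 to 144 bp most positions lie within 47 bp of an end, so length largely fixes the count near the ends. Low regions of 97 to 144 bp seldom had the summit in the middle 20%.

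In bp, the summit offsets had a gap. Counted from the start of a region, 1321 summits (85.2%) lay 0 to 47 bp in, 1 lay 48 to 51 bp in and 228 lay 52 bp or more in. Just below the gap, from 40 to 47 bp, there were 335, and just above it, from 52 to 59 bp, 28. Counted from the end, the numbers were 1242, 1 and 307. The commonest offset was 47 bp from the start, in 61 regions, and 46 bp from the end, in 57. In the 397 taller autosomal peaks over 48 bp, 66 summits lay 40 to 47 bp from the start, 4 lay 48 to 51 bp and 9 lay 52 to 59 bp from it. From the end these counts were 83, 2 and 8. The span from 48 to 51 bp is narrower than the other spans. In the taller peaks these counts thus show a drop after 47 bp, and no clear gap. In 1031 regions (66.5%) the summit lay within 47 bp of both ends, in 501 of 1 end and in 18 of neither.

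**Figure D5:**
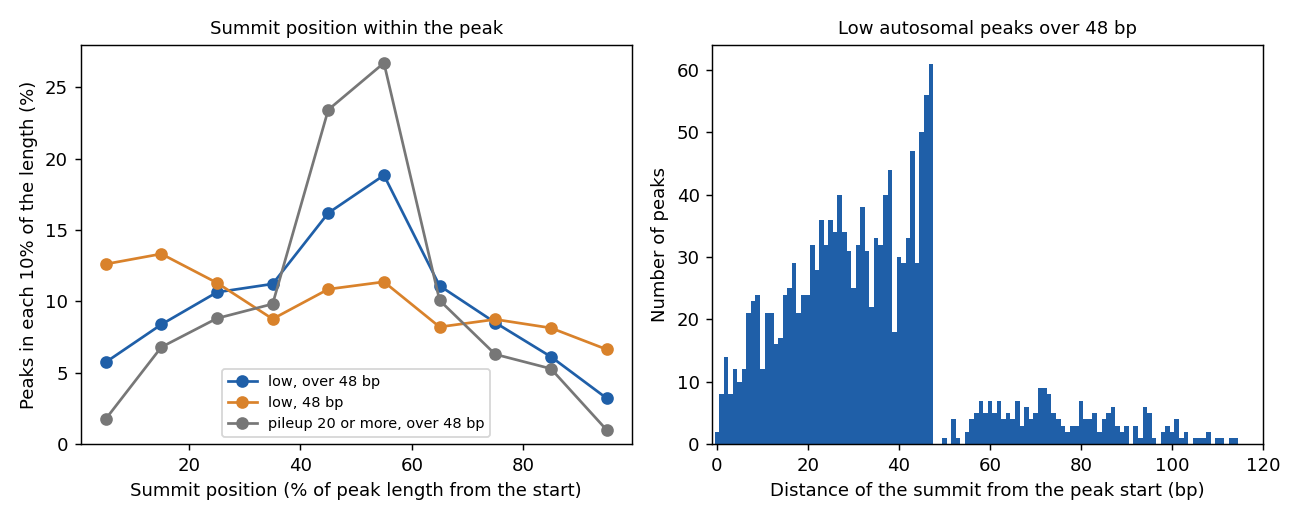
Left, percentage of peaks with the summit in each 10% of the peak, from start to end, for 3 kinds of autosomal peak. Right, number of low autosomal peaks over 48 bp by the distance in bp from start to summit, up to 120 bp. The 2 steps beside the middle hold 16.2% and 18.8% of the low peaks over 48 bp, and 335 summits lie 40 to 47 bp from the start, 1 lies 48 to 51 bp and 28 lie 52 to 59 bp from it.

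Which sequence, gene or repeat lies under these regions was not analysed here, since no genome or annotation of the build mm9 was used. No motif, promoter or bound gene is therefore assigned to any region named above.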

How the data were processed

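The study's labels describe RNA, ChIP and input libraries, and only the deposited peak list was used here. Per the file headers, the authors called the peaks with MACS2 2.0.10.20120913 without a control, at a q cutoff of 0.05, from 37201269 tags of 50 bp, each taken as a 48-bp fragment, and with the local background measured over 10000 bp. The build mm9 is in the submitters' processing notes. Aligner settings and the handling of duplicates are not given in the sources used. The pileup is the deposited signal in tags at the summit. The fold and the −log10 q are also as deposited by the authors.

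Gaps, 1-Mb windows, clusters, summit offsets and the background, taken as (pileup + 1) / fold − 1, were computed with Python 3.11.15 and pandas 2.3.3. Intervals are exact Clopper-Pearson 95% intervals from SciPy 1.17.1. They treat peaks as independent and cover counting error only, and tags without molecular identifiers are not independent molecules. Chromosome spans run from the first to the last listed peak. The functions were tested on simulated peaks. The members and measures were chosen with earlier results of these data known. Named regions were the 10 with the highest fold, the 5 longest and the 5 largest clusters, with ties broken by −log10 q, then chromosome and start, and regions on chromosome 18 were counted but not named. The promoter table names no positions and was not used.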

Additional observations from a re-analysis of the deposited data

How the results depend on the processing

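Each of 6 results was recomputed under the alternatives: the number of regions, their median length, the density of the densest chromosome over that of all autosomes, the percentage with another region within 10 kb, the percentage of summits in the middle 20% and the median fold. Of 53 values, 37 stayed within 1.5 times the number of regions or within the 95% interval of the main value. The density ratio, 1.44, stayed within its interval in all 9 of its alternatives (1.37 to 1.60), but chromosome 11 took the first place from chromosome 4 with a pileup below 15, with a length above 60 bp, without members near tall peaks and without the dense windows. The percentage with another region within 10 kb, 10.1%, became 5.90% with a pileup below 15, 14.7% below 30, 6.73% above 60 bp, 13.3% at a −log10 q of at least 3 and 6.40% without regions within 10 kb of a tall peak. It was 5.08% without the 8 dense windows and 7.60% without chromosome 4, both chosen after seeing the data. A limit of 1 kb gave 4.65% and one of 100 kb gave 24.1%. At a −log10 q of at least 3 there were 817 regions with a median length of 64 bp, 41.1% of summits in the middle 20% and a median fold of 6.11. Above 60 bp the median length was 80 bp and the fold 5.03, and with a pileup below 30 the fold was 5.36. The cause of these changes was not tested. No paired analysis was possible because the peak list carries no replicate number. Few tags per peak limit what can be read: the median region has 10 tags at its summit.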
